A study of Mus musculus with 18 samples.

Results

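The comparison described here sets the livers of Hmgn1 knockout mice that received N-nitrosodiethylamine (DEN) against the livers of Hmgn1 knockout mice that received saline. It covers 6 of the 18 arrays of the series, 3 with DEN and 3 with saline, chosen by their labels. All 6 samples carry the genotype Hmgn1-/-, and both groups were male mice injected at 4 weeks of age, with 10 µg of DEN per g of body weight or with saline. Both groups are labelled 12 weeks; whether the weeks run from birth or from the injection is not given, so the age at collection is uncertain. The other arrays, 3 in each group, are Hmgn1-/- livers at 4 weeks without injection, and Hmgn1+/+ livers at 4 weeks without injection, with saline and with DEN. The Hmgn1+/+ and Hmgn1-/- mice go back to littermates of a heterozygous cross but were then bred as separate homozygous lines. RNA came from whole frozen liver, and nothing in the labels says that the 3 samples of a group are 3 animals, so the tests rest on the variation among these samples, which may be technical only.

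DEN is a carcinogen that hepatocytes activate themselves, chiefly through the cytochrome P450 enzyme Cyp2e1. The activated compound ethylates DNA bases, and a single dose given to young male mice leads to liver tumours months later. HMGN1, the protein missing in the knockout, binds nucleosomes, loosens chromatin and has been linked to the access of DNA repair factors to damaged DNA. The comparison addresses how a liver without HMGN1 differs in gene expression after DEN exposure, and the arrays of Hmgn1+/+ liver serve to test whether that response is another one in the knockout.

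Expression was read on Affymetrix Mouse430_2 arrays, where each probe set gives a signal intensity for a transcript. The signals had been scaled by the authors to a trimmed mean of 150 on each array. The saline arrays stood apart from all others in their signal range. The highest signal was 18609 to 20745 on the knockout saline arrays and 52647 to 53300 on the knockout DEN arrays, and the 99th percentile was 4798 to 4892 against 6330 to 6995. Bacterial and phage transcripts that are added to every sample were also lower on the saline arrays, by 2.23 to 2.96 in log2 over 8 transcripts with no overlap. Being a saline sample and being one of these differing arrays cannot be told apart. The signals were therefore given the same distribution on all 18 arrays by quantile normalization, and every signal below is one of these values. Differences are in log2 of the signal plus 16, DEN minus saline, so that 1 is a doubling at high signals and low signals are understated. Across probe sets, arrays of the same knockout group correlated with r of 0.9696 to 0.9867 and knockout DEN with knockout saline arrays with r of 0.9658 to 0.9738.

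The labelled tissue was borne out by its markers. Alb, the serum albumin made by hepatocytes, had a signal of 27090, 25990 and 26720 on the saline arrays and of 28690, 29210 and 29210 on the DEN arrays, and its difference of 0.13 (SE 0.05) did not pass the test (limma adjusted p = 0.0837). Over 22 measured hepatocyte genes the summed signal was 353700 to 363700 with saline and 353500 to 365400 with DEN, so these ranges overlapped. Cyp2e1 was at 19580, 20090 and 19580 with saline and 22620, 21230 and 21870 with DEN (difference 0.15, limma adjusted p = 0.119). These differences were larger under other scalings. With the deposited signals Alb was higher with DEN by 1.33 and Cyp2e1 by 1.19, and with cyclic loess by 0.61 and 0.55. The median over the 22 hepatocyte genes was -0.01 with quantile normalization, 0.94 with the deposited signals and 0.29 with cyclic loess, so the size of these differences, and the sign of the list's median, depend on the scaling.

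Hmgn1 itself did not separate the labelled genotypes, since its signals were alike in Hmgn1+/+ and Hmgn1-/- livers. Its probe set of highest mean read 6520, 6213 and 5881 on the knockout saline arrays, 5221, 5817 and 5817 on the knockout DEN arrays, 6556, 6281 and 6067 on the wild-type saline arrays and 5988, 5108 and 6225 on the wild-type DEN arrays. The deleted part of the gene and the place of the probes in it are not given in the sources used here, so these signals do not check the labels. The DEN minus saline difference of this probe set in the knockout was -0.14 (95% interval -0.32 to 0.03) and it turned to 0.29 with the deposited signals and to 0.40 with centred array medians. Another Hmgn1 probe set, of the type whose name ends in _a_at, was higher with DEN by 0.32 (limma adjusted p = 0.0170), at 1719, 1834 and 1769 against 2339, 2224 and 2117.

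DEN-exposed and saline knockout livers differed at 2952 of 27022 tested probe sets (10.9%), 1390 of them higher with DEN (5.14%) and 1562 lower (5.78%), by limma with Benjamini-Hochberg adjustment at a threshold of 0.05. Counting each gene once, by its probe set of highest mean, 1469 of 12900 genes passed (11.4%), of which 745 rose (5.78%) and 724 fell (5.61%). Most changes were small. The median size over the called probe sets was 0.553, 1201 of them were under 0.5 and 259 were over 1. The DEN and saline values did not overlap in 8194 of the tested probe sets (30.3%) and in 4019 genes (31.2%). With centred array medians in place of quantile normalization the split was 2304 up and 1194 down, or 65.9% up against 47.1%. Without saline replicate 1 the number of called probe sets was 1545, and without saline replicate 3 it was 1745.

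The 12 largest rises covered genes of different roles. Psmb7, a catalytic subunit of the proteasome, was at 389, 480 and 451 with saline and at 1062, 1019 and 900 with DEN. Its groups did not overlap, as in 31.2% of all genes tested. It rose by 1.15 (SE 0.11, limma adjusted p = 4.25e-06), the smallest adjusted p of the 12 largest rises. Lgmn, a lysosomal protease, was at 160, 149 and 180 with saline and 287, 333 and 385 with DEN, a rise of 0.97 (SE 0.16).

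Zdhhc12, a member of the family of enzymes that attach palmitate to proteins, had the largest rise of the genes named by rule. It read 92.3, 23.4 and 58.5 on the saline arrays and 257, 217 and 221 on the DEN arrays, a rise of 1.86 (SE 0.31, limma adjusted p = 0.000656). Saline replicate 2 had the lowest value, and no DEN array came near the saline range. Trpc4ap, which encodes a protein bound to a cation channel and to ubiquitin ligases, was at 69.9, 64.3 and 27.9 with saline and 256, 228 and 111 with DEN (1.60, SE 0.34). Scyl2, a pseudokinase of clathrin-coated vesicles, was at 57.9, 42.9 and 65.5 with saline and 163, 161 and 129 with DEN (1.23, SE 0.20). Its 2 other tested probe sets had the opposite sign, neither of them called, and the mean over its probe sets did not pass.

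Sepiapterin reductase, Spr, which completes the synthesis of tetrahydrobiopterin, was at 385, 355 and 379 with saline and 721, 696 and 651 with DEN. It rose by 0.86 with a small error (SE 0.09, limma adjusted p = 1.16e-05). Brcc3, which removes ubiquitin chains in a complex with the BRCA1 protein, rose by 0.86 (SE 0.15) from 192, 219 and 202 to 371, 406 and 372. Of its 5 tested probe sets 1 was called and 3 had this sign, and the mean over its probe sets did not pass. Fdps, the farnesyl diphosphate synthase of the cholesterol pathway, was at 1192, 1632 and 1238 with saline and 3130, 2800 and 2064 with DEN (0.96, SE 0.24, limma adjusted p = 0.0146), and its adjusted p was 0.0677 without saline replicate 1. The others of the 12 largest rises were the ribosomal protein gene Rpl27a (1.04), the chemokine Cxcl9 (0.94), Frg1 (0.93) and Lyrm2 (0.87). Lyrm2 was not called without DEN replicate 2 (adjusted p = 0.12).

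The largest falls included regulators of transcription and RNA. Malat1, a long noncoding RNA of nuclear speckles, the compartments that store splicing factors, was at 4275, 5947 and 5304 with saline and at 1364, 1690 and 751 with DEN. Every DEN array lay below every saline array (31.2% of all genes had no overlap in either direction). The difference was -2.08 (SE 0.29, limma adjusted p = 0.000115), a 4.22-fold lower level. Of its 7 tested probe sets 5 were called lower and 0 higher.

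Bcl6, a repressor of transcription that shapes the male pattern of growth hormone-dependent liver genes, was at 928, 539 and 976 with saline and at 123, 99.3 and 481 with DEN. DEN replicate 3 stood above the other DEN arrays but still below the saline range, and the fall was 2.01 on the log2 scale (SE 0.36, limma adjusted p = 0.00101). The other tested probe set of Bcl6, at 30.2, 42.9 and 55.8 with saline and 27.7, 40.1 and 76.0 with DEN, differed by 0.07 and was not called. Smad7, the inhibitory Smad that shuts off TGF-beta and BMP receptors, was at 563, 301 and 244 with saline and at 88.5, 105 and 83.8 with DEN (-1.75, SE 0.23, limma adjusted p = 0.000103). Both of its probe sets were called lower.

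Ezr has its largest difference at a probe set of low signal, 166, 173 and 204 with saline and 46.6, 14.6 and 23.8 with DEN (-2.21, SE 0.25). This gene encodes ezrin, which links membranes to actin. Its other probe set, without the _x_at ending, differed by 0.22 and was not called, so the direction for Ezr holds for 1 probe set. Ip6k2, an inositol hexakisphosphate kinase, was at 489, 696 and 590 with saline and 273, 191 and 134 with DEN (-1.53, SE 0.23). Tm7sf3, a membrane protein gene, had the smallest adjusted p of these falls, with 1213, 1322 and 1217 against 474, 561 and 504 (-1.26, SE 0.09, limma adjusted p = 1.66e-07). All 4 of its tested probe sets had the same sign, but Tm7sf3 was not called without _x_at and _s_at probe sets. Over the settings run its difference ranged from -1.33 to -0.16. The remaining large falls were Gm4788 (-1.49), Cpeb2, a regulator of mRNA polyadenylation (-1.39), Rflna (-1.34), Pkdcc, a secreted tyrosine kinase (-1.31), the antiproliferative gene Tob2 (-1.28) and Ube2w, a ubiquitin-conjugating enzyme (-1.24). Tob2 was not called without _x_at and _s_at probe sets or as the mean over its probe sets, and its difference ranged from -1.37 to -0.20 over the settings.

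**Figure D1:**
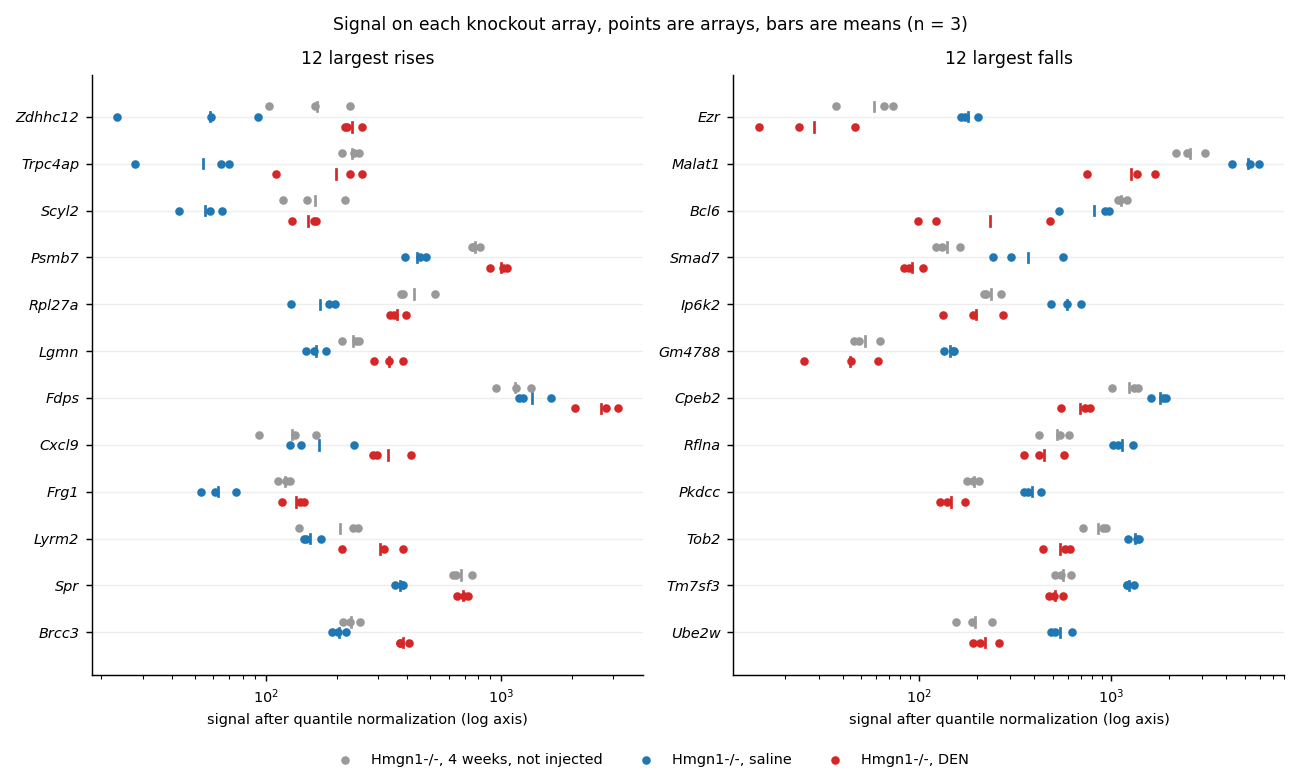
Signals of the 12 largest rises (left) and 12 largest falls (right) on each knockout array after quantile normalization, on a log axis, with 4-week arrays in grey, saline in blue and DEN in red. Points are arrays and vertical bars are means (n = 3); in 16 of the 24 genes the 4-week mean lies nearer the DEN mean than the saline mean.

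The uninjected knockout livers at 4 weeks give another level for each of these genes, on arrays with the signal range of the DEN arrays but from younger animals. Their Gapdh ratio, described below, also differed, at 1.7, 1.35 and 1.45 against 0.937, 0.907 and 0.926 with DEN. The 4-week mean was nearer to the DEN mean than to the saline mean in 16 of the 24 genes, 8 of the rises and 8 of the falls. Over all 1469 called genes this was so in 751 (51.1%), and over all 12900 genes in 6291 (48.8%). Trpc4ap, for example, was at 238, 250 and 211 at 4 weeks, within its DEN range, and Ube2w was at 156, 190 and 240, against 488, 513 and 626 with saline and 260, 208 and 192 with DEN. Bcl6 went the other way, with 1112, 1085 and 1210 at 4 weeks, and so did Fdps, Cxcl9 and Brcc3. DEN minus 4 weeks, a comparison that shares the DEN arrays, was -0.29 for Trpc4ap (limma adjusted p = 0.671), 0.17 for Ube2w (0.566), -2.53 for Bcl6 (0.000473), 1.20 for Fdps (0.00619) and 1.27 for Cxcl9 (0.00185).

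Some macrophage genes rose in DEN-exposed knockout liver. Of 26 measured genes of macrophages and Kupffer cells, the resident macrophages of the liver, 7 rose (26.9%, against 5.78% of all genes tested) and 1 fell, and their median difference was 0.35 against 0.01 over all genes. The genes that rose were the lysozymes Lyz1 and Lyz2, the complement components C1qa and C1qc, the IgG receptor Fcgr3, the phosphatidylserine receptor Timd4 and the Kupffer cell lectin Clec4f. Leaving out single arrays gave 5 to 12 rises, 12 of them without DEN replicate 1, and with the Gapdh ratio described below as a covariate there were 3.

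Lyz2 was at 505, 606 and 567 with saline and at 905, 920 and 997 with DEN (0.74, SE 0.16, limma adjusted p = 0.00514), and at 425, 374 and 415 in the 4-week knockout. Fcgr3 was at 65.1, 75.9 and 84.6 with saline and 134, 132 and 140 with DEN (0.74, SE 0.15). For C1qc the values were 264, 256 and 347 with saline and 413, 482 and 520 with DEN (0.68, SE 0.13, limma adjusted p = 0.0013). In all of these genes the DEN arrays were the highest of the 9 knockout arrays. Timd4, a marker of long-lived Kupffer cells, was at 50.3, 35.7 and 43.3 with saline and 66.1, 116 and 96.7 with DEN (0.86), and Clec4f was at 463, 437 and 548 against 516, 673 and 845 (0.46, limma adjusted p = 0.0232). DEN replicate 1 was the lowest of the DEN arrays for Timd4, Clec4f and C1qa, and for Clec4f it lay inside the saline range.

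Lyz1 was at 1099, 1366 and 1252 with saline and 1932, 1956 and 2221 with DEN (0.71), at a probe set of the _x_at type. Another such probe set differed by 0.36 and one of the _at type, at a signal of 27.2 or less, by -0.66, neither of them called. Ccr2, the chemokine receptor of monocytes that enter tissue from blood, was the member that fell, from 56.3, 42.4 and 37.1 to 14.9, 17.6 and 27.7 (-0.77, limma adjusted p = 0.0304), and no member fell without DEN replicate 1, DEN replicate 2, saline replicate 1 or saline replicate 2. Other Kupffer and macrophage genes had positive differences that did not pass, among them Vsig4 (0.62), Aif1 (0.58), Cd68 (0.57), Cd5l (0.39), Adgre1 (0.34) and Csf1r (0.21), while C1qb (0.00), Cd163 (-0.04) and Itgax (-0.01) were near 0. The signal summed over the 26 genes was 9908 to 10660 with saline, 11620 to 15810 with DEN and 8215 to 8749 at 4 weeks in the knockout. In a whole-tissue sample, more macrophages and more RNA per macrophage cannot be told apart.

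Markers of other blood and liver cells gave a mixed result. Of all genes tested 5.78% rose and 5.61% fell. Of 14 measured genes of T, B and NK cells and of 10 of neutrophils, 0 passed in either direction, with summed signals of 662 to 732 against 683 to 702 and of 302 to 361 against 298 to 403 (limma, saline before DEN); of all tested probe sets 6782 were under an unadjusted p of 0.05. Of 22 endothelial genes 2 rose (9.09%), the VEGF receptor Kdr and Rspo3 (0.60). Kdr was at 198, 212 and 239 with saline and 327, 287 and 321 with DEN (difference 0.50). Kdr was not called without saline replicate 1 (adjusted p = 0.0663). Of 32 stellate cell and matrix genes 0 rose and 2 fell (6.25%, near the share of all genes), Ngfr (-1.05) and the gelatinase Mmp2 (-0.76). The median over the stellate list was 0.11. Of 3 measured erythroid genes 1 rose (33.3%) and 0 fell, with 2 positive differences and 1 negative. The gene that rose was Alas2, the first enzyme of heme synthesis in red cell precursors. Alas2 rose by 0.70 (SE 0.11) from 445, 462 and 520 to 803, 750 and 784, with 742, 853 and 757 at 4 weeks. Genes of fat and muscle summed to 1023 to 5202 with saline and 956 to 6989 with DEN over 8 genes, so single samples differed widely within both groups. The summed signal of 8 bile duct genes was 942 to 1043 with saline and 1171 to 1215 with DEN. Of these 8 genes 3 rose (37.5%) and 1 fell (12.5%). Their differences were positive in 4 and negative in 4, with a median of -0.04. The summed signal of 22 endothelial genes was 5431 to 5746 with saline and 5759 to 6475 with DEN. The part of these sums in the other results was not tested.

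A few interferon response genes and a pair of immunoproteasome subunits rose with DEN. Interferons are cytokines that switch on antiviral and antigen-presenting genes in target cells, through response elements in their promoters. Of 30 measured interferon response genes 5 rose (16.7%, against 5.78% of all genes tested) and 0 fell, with a median of 0.20. Of 15 antigen presentation genes 2 rose (13.3%) and 0 fell, while 14 of the 15 had a positive difference; 1 rose without DEN replicate 2, DEN replicate 3 or any single saline array. The chemokine Cxcl9, an attractant of T cells, was at 141, 237 and 127 with saline and 413, 297 and 286 with DEN (0.94, SE 0.22, limma adjusted p = 0.00731). Ifi27 was at 894, 944 and 904 against 1213, 1408 and 1315, with both its probe sets called higher (0.51, SE 0.09, limma adjusted p = 0.000965). In wild type it also rose, by 0.45.

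Psmb9, which replaces a standard subunit in the immunoproteasome that cuts peptides for antigen presentation, was at 119, 124 and 140 with saline and 227, 199 and 203 with DEN (0.65, SE 0.13, limma adjusted p = 0.00294). At 4 weeks it was at 97.6, 98.9 and 107, so the DEN arrays were the highest of the knockout arrays. Psmb10, another such subunit, was at 304, 333 and 334 against 365, 432 and 488 (0.38). The other genes that rose were the antiviral Ifit1 (74.7, 71.3 and 65.5 against 87.4, 150 and 127, difference 0.64), the RNA sensor Ifih1 (0.36) and Bst2, which tethers virus particles to the cell (0.28). Adjusted p-values went to 0.151 for Bst2 and 0.143 for Psmb10 without DEN replicate 3 and to 0.179 for Ifih1 without saline replicate 3. The number of interferon genes that rose was 2 without DEN replicate 2, saline replicate 2 or saline replicate 3, and 3 without DEN replicate 3 or saline replicate 1. Core interferon genes did not pass, with differences of 0.04 for Usp18, -0.07 for Irf7, 0.25 for Oas1a, 0.24 for Cxcl10 and -0.60 for Mx1. The signal summed over the 30 interferon response genes overlapped, at 13450 to 13900 with saline and 13600 to 15080 with DEN. The macrophage sum given above was higher with DEN, and its part in the interferon and antigen presentation genes was not tested.

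**Figure D2:**
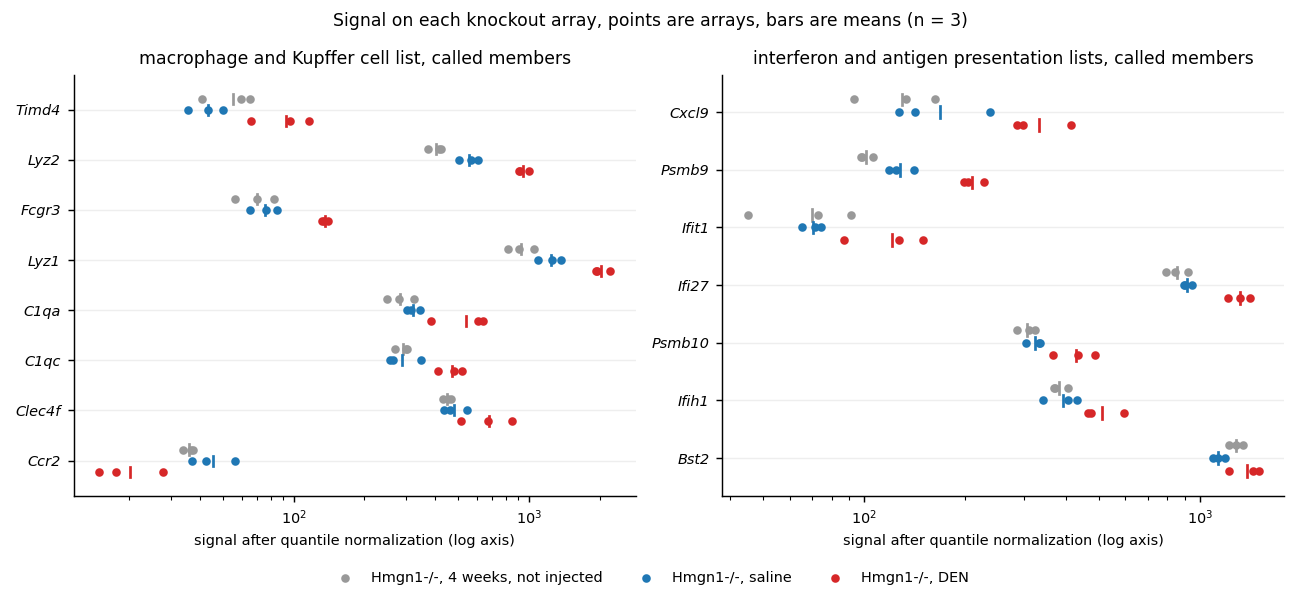
Signals of the called members of the macrophage and Kupffer cell list (left) and of the interferon and antigen presentation lists (right) on each knockout array after quantile normalization, on a log axis, with 4-week arrays in grey, saline in blue and DEN in red. Points are arrays and vertical bars are means (n = 3); the DEN arrays lie to the right for all genes shown except Ccr2, which was lower, and for Clec4f DEN replicate 1 falls inside the saline range.

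Promoters are shown for 3 of the interferon genes that rose, because each holds the core of the interferon-stimulated response element, the sequence bound by the STAT and IRF factors that interferons activate. The core was searched as GAAA, 2 bases of any kind and GAAA again on both strands in the window from 250 bases before to 50 bases after the start of transcription, and the gamma-activated site as TTC, 3 bases of any kind and GAA, which reads the same on both strands. Of the 7 interferon and antigen presentation genes that rose, 6 have a promoter in the RefSeq table for build GRCm38.p6, and 3 of the 6 hold the response element core. Of the 29 other measured members with a promoter 13 hold it, and so do 1079 of all 27025 genes with a promoter (3.99%). A gene counts once if any of its promoters holds the motif. The gamma-activated site was found in 1 of the 6, in 6 of the 29, and in 2582 of all 27025 genes (9.55%). The sequences are printed 5′ to 3′ on the strand of the gene, with matches in capitals, where overlapping matches run together.
Ifit1 (chr19:34640639-34640938, plus strand): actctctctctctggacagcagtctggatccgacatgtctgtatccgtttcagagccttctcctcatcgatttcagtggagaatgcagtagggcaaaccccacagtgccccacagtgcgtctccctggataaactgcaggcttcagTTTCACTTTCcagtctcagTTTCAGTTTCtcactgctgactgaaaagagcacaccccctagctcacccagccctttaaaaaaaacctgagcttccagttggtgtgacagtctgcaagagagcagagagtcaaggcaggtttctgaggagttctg
Ifih1 (chr2:62646206-62646505, minus strand): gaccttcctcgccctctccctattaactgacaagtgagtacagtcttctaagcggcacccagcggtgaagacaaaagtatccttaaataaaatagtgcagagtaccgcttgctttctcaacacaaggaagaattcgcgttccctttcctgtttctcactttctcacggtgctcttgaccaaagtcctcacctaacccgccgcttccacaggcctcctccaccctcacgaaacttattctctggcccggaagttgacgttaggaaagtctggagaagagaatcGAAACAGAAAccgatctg
Bst2 (chr8:71537423-71537722, minus strand): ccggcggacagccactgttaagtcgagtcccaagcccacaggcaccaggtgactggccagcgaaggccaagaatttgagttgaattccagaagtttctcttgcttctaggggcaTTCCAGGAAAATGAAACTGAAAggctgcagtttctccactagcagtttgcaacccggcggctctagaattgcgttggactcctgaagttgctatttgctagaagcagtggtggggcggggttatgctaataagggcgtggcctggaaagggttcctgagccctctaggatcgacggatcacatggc
In Ifit1 the capitals mark 2 separate response element cores on the minus strand of the gene, and in Bst2 a gamma-activated site runs into 2 overlapping cores. Cxcl9, Psmb9 and Psmb10 hold neither motif in this window. A match is a description of the sequence and not a site shown to be bound.

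Many genes of RNA splicing fell. Of 31 measured genes of the spliceosome and its regulators, Malat1 included, 11 fell (35.5%, against 5.61% of all genes tested) and 4 rose (12.9%), with a median difference of -0.16. Ddx17 and Ddx5, RNA helicases that work in splicing, were lower in both or all of their probe sets. Ddx17 was at 3636, 3195 and 3485 with saline and 2372, 2073 and 2218 with DEN (-0.63, SE 0.12, limma adjusted p = 0.002), and Ddx5 was at 3461, 3618 and 3277 against 2082, 2531 and 2695 (-0.51, SE 0.10). Neither was called with centred array medians. Ddx5 was also not called without _x_at and _s_at probe sets, nor Ddx17 with the Gapdh ratio as a covariate. Hnrnph1, an hnRNP protein that guides splice site choice, was at 1344, 1267 and 1280 against 996, 1025 and 1024 (-0.35), and Luc7l2, a partner of the U1 particle, was at 846, 628 and 861 against 582, 569 and 500 (-0.48), with 6 of 6 probe sets lower.

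The levels of these splicing genes at 4 weeks differed from gene to gene. Ddx5 was at 2093, 2390 and 2724 at 4 weeks, near its DEN values, though 2724 was above them. Hnrnph1 was at 1417, 1288 and 1277, near its saline values, though 1417 was above them. Of the 11 genes that fell, 5 had a 4-week mean nearer to the DEN mean. The SR protein genes Srsf3 and Srsf1 show how far probe sets of a gene disagreed. Srsf3 rose by 0.60 at its probe set of highest mean (693, 636 and 554 against 947, 1020 and 894), yet 4 of its 5 other probe sets had a negative difference, from -0.04 to -0.28. Srsf1 fell by 0.53 at an _x_at probe set and differed by 0.03 at the next. The count of splicing genes that fell was 6 without saline replicate 1, 7 without saline replicate 3, 6 with centred array medians, and 3 with the Gapdh ratio as a covariate.

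Targets and inhibitors of BMP and TGF-beta signalling fell in 3 of 16 measured genes (18.8%, against 5.61% of all genes tested) and rose in 0, with a median of -0.17. BMP ligands act through Smad proteins that switch on the Id genes, which encode inhibitors of DNA-binding transcription factors, and the inhibitory Smads, which end the signal. Id1 was at 726, 517 and 613 in knockout saline livers and at 306, 385 and 197 with DEN (-1.06, SE 0.20, limma adjusted p = 0.00154). These values did not overlap, as in 31.2% of all genes tested. In the 4-week knockout Id1 was higher still, at 842, 786 and 732. In wild type it was at 249, 161 and 200 with saline and 253, 226 and 263 with DEN. The knockout DEN range of Id1 thus met the wild-type range, while the knockout saline arrays all lay above every wild-type array. For Smad7 too the knockout saline arrays lay above every wild-type array, which read 118, 135 and 84.7 with saline and 94.2, 59.8 and 92.1 with DEN, but its 4-week knockout level of 132, 123 and 164 was well below the saline level. Its other probe set was at 203, 159 and 150 with saline, 96.2, 110 and 83.5 with DEN and 191, 243 and 226 at 4 weeks in the knockout. Skil, which encodes a repressor of Smads that their own signal induces, was at 703, 508 and 639 against 395, 461 and 448 (-0.48), and its adjusted p was 0.0784 without saline replicate 1. The relatives Id2 (-0.15), Id3 (-0.22), Id4 (-0.19) and Smad6 (-0.20) did not pass, and neither did the ligand genes Bmp2 (-0.27), Bmp4 (0.18) and Bmp6 (0.08).

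Genes of the endoplasmic reticulum stress response fell in 4 of 27 (14.8%, against 5.61% of all genes tested) and rose in 0 with quantile-normalized signals, whereas with centred array medians 6 rose and 1 fell. Without DEN replicate 2 the count was 2 falls and 2 rises, and with the Gapdh ratio as a covariate 1 fell. Syvn1, the ubiquitin ligase that clears misfolded proteins from the endoplasmic reticulum, was lower in both probe sets. The stronger one read 1114, 1003 and 992 with saline and 744, 493 and 616 with DEN (-0.75, SE 0.16, limma adjusted p = 0.00465), and the other read 522, 457 and 513 against 237, 252 and 275 (-0.92). Dnajb9, a co-chaperone of the same compartment, was at 1879, 1869 and 1790 against 1475, 1242 and 1351 (-0.44), with 2338, 2423 and 2457 at 4 weeks. Among stress and survival genes, Bcl2l1, which blocks cell death, fell by 0.72 (342, 355 and 374 against 224, 219 and 189), and the neutrophil chemokine Cxcl1 fell by 0.90 (320, 190 and 287 against 109, 152 and 138), with negative differences at its 2 other probe sets that were not called. The other tested probe set of Bcl2l1, at signals of 29.9 or less, differed by 0.04. Nfkbia, the inhibitor of NF-kB, fell by 0.42 but was not called without DEN replicate 2 (adjusted p = 0.111). Cdh1, the E-cadherin of periportal hepatocytes and bile ducts, fell by 1.03 (SE 0.16) from 895, 757 and 1069 to 348, 443 and 521.

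Genes of the response to DNA damage were called at shares near those of all genes (5.78% rose and 5.61% fell). Of 25 measured p53 targets 1 rose (4%) and 2 fell (8%). Fas, the death receptor, was at 175, 145 and 203 with saline and 254, 254 and 259 with DEN (0.53, SE 0.14, limma adjusted p = 0.0163), and was not called without saline replicate 2 (adjusted p = 0.0936). Sesn1 fell at its probe set of highest mean, from 616, 621 and 470 to 276, 296 and 251, while 2 others differed by -0.08 and 0.16, and Sesn2 fell by 0.93. The cell cycle inhibitor Cdkn1a, the most used p53 target, differed by -0.97 and did not pass (limma adjusted p = 0.0529), and Mdm2 (-0.20), Ccng1 (0.15) and Phlda3 (0.10) did not pass either. Of 22 nucleotide excision repair genes 1 fell, Rad23b (-0.33), which helps to find the damage, and it was not called without DEN replicate 2 (adjusted p = 0.109). Of 19 genes of alkylation and base excision repair 1 rose, Pcna, the sliding clamp of DNA replication (0.37), which is also the only one of 21 proliferation genes that rose. The adjusted p of Pcna was 0.188 without saline replicate 1. In the double-strand break list of 19 genes, Xrcc5 rose (0.45) and Brca2 fell (-0.65), and Xrcc5 was not called without saline replicate 2 (adjusted p = 0.121).

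Of 18 fetal liver and tumour markers 0 rose and 1 fell, Tspan8 (-1.02), close to the share of all genes that fell. Afp, the fetal counterpart of albumin and a marker of liver tumours, was at 28.3, 13.9 and 30.3 with saline and 21.4, 50.9 and 70.7 with DEN. Its groups overlapped, and its difference of 0.61 (95% interval 0.04 to 1.18 before adjustment) did not pass (limma adjusted p = 0.169). Of 9 genes that activate or detoxify DEN and its products 1 rose (11.1%, against 5.78% of all genes tested), the alcohol dehydrogenase Adh1. It rose by 0.22 (limma adjusted p = 0.011), from 14580, 13890 and 13890 to 16200, 16290 and 16790. Adh1 was higher by 1.04 with the deposited signals and by 1.15 with centred array medians, and the median of the list went from -0.004 to 0.63 with the deposited signals.

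Detoxification and heme genes rose in part. Of 30 measured glutathione transferases and targets of NRF2, the factor that switches on antioxidant genes, 6 rose and 1 fell, with a median of 0.08. The rises were 20.0% of the list and the fall 3.33%, against 5.78% and 5.61% of all genes tested. Gstk1, the mitochondrial transferase, was at 1918, 2065 and 2067 with saline and 2733, 2776 and 2522 with DEN (0.41, SE 0.07, limma adjusted p = 0.000987). Gstz1, which also acts in tyrosine breakdown, was at 2943, 3095 and 2895 against 4446, 4023 and 4100 (0.49). Mgst3, Gsta3, Gstm6 and Gstt1 rose by 0.20 to 0.48, of which Mgst3 was not called without saline replicate 3 (adjusted p = 0.0619), while Gsto1 fell by 0.40 at one probe set and had the opposite sign at the other. Without saline replicate 1 or saline replicate 3 the rises were 3, and with the Gapdh ratio as a covariate they were 2. Nqo1, the usual marker of NRF2, differed by 0.04.

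In the heme pathway 4 of 12 genes rose (33.3%) and 1 fell (8.33%), against 5.78% and 5.61% of all genes tested. The biliverdin reductases Blvra (218, 208 and 209 against 292, 346 and 309) and Blvrb (2035, 2094 and 2064 against 2557, 2418 and 2527) act on the breakdown product of heme and rose by 0.54 and 0.27. Urod, a decarboxylase of heme synthesis, rose by 0.28, and its other probe set was called in the same direction, but it was not called without saline replicate 3 (adjusted p = 0.0724). Alas1, the rate-limiting enzyme of heme synthesis in liver, rose by 0.78 at 1 probe set but overlapped, with 1375, 2756 and 1448 against 4138, 2474 and 2742. It was not called without saline replicate 1 (adjusted p = 0.163), and its other probe set differed by -0.83. With cyclic loess in place of quantile normalization 1 heme gene rose, and without saline replicate 3 it was 2.

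Enzymes and transporters of bile acids moved one by one. Akr1d1, the reductase that saturates the sterol ring on the way to bile acids, fell by 0.93 (2603, 2941 and 2254 against 1294, 1747 and 1093). The other tested probe set of Akr1d1 had the opposite sign and was not called. Abcc2, the export pump of the bile canaliculus, fell by 0.78 (2437, 2103 and 2803 against 1465, 1211 and 1590). At 4 weeks both lay below their saline ranges, at 1253, 1370 and 1630 for Akr1d1 and 1529, 1735 and 2059 for Abcc2. The list as a whole had 1 rise (3.45%) and 2 falls (6.9%) among 29 genes, near the shares of all genes tested (5.78% and 5.61%). Of 34 cytochrome P450 genes 4 fell (11.8%) and 0 rose after quantile normalization, with Cyp4f13 among the falls (-0.73). With the deposited signals 13 rose and 1 fell. The falls were 2 without DEN replicate 2, and 1 without DEN replicate 1 or any single saline array.

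Other lists depended on the scaling in the same way. After quantile normalization 5.78% of all genes tested rose and 5.61% fell. Of 17 iron genes 4 fell (23.5%), led by Aco1, the iron-sensing aconitase (8756, 9836 and 8057 against 5341, 5200 and 5420, difference -0.73). But with centred array medians 0 fell and 3 rose, and without DEN replicate 2 or saline replicate 1 the falls were 2. Of 22 ribosomal protein genes 4 rose (18.2%) after quantile normalization and 18 with the deposited signals, the median going from 0.11 to 0.55. Without DEN replicate 2 the rises were 2. For 23 proteasome and ubiquitin genes 5 rose (21.7%) and 1 fell (4.35%), against 11 and 1 with the deposited signals. Ube2d3, a ubiquitin-conjugating enzyme, rose at its probe set of highest mean by 0.51 (SE 0.08), from 2144, 2216 and 2312 to 3159, 2932 and 3416, and all 7 of its probe sets had that sign. Of 28 acute phase genes, the plasma proteins made in inflammation, 4 rose (14.3%) and 2 fell (7.14%), against 15 and 1 with the deposited signals. Without DEN replicate 3, saline replicate 1 or saline replicate 2 there were 2 rises and 0 falls, and without DEN replicate 2 or saline replicate 3 there were 3 and 0. The serum amyloid gene Saa2 rose by 0.76 (129, 164 and 136 against 224, 259 and 276), which held with all settings tried.

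**Figure D3:**
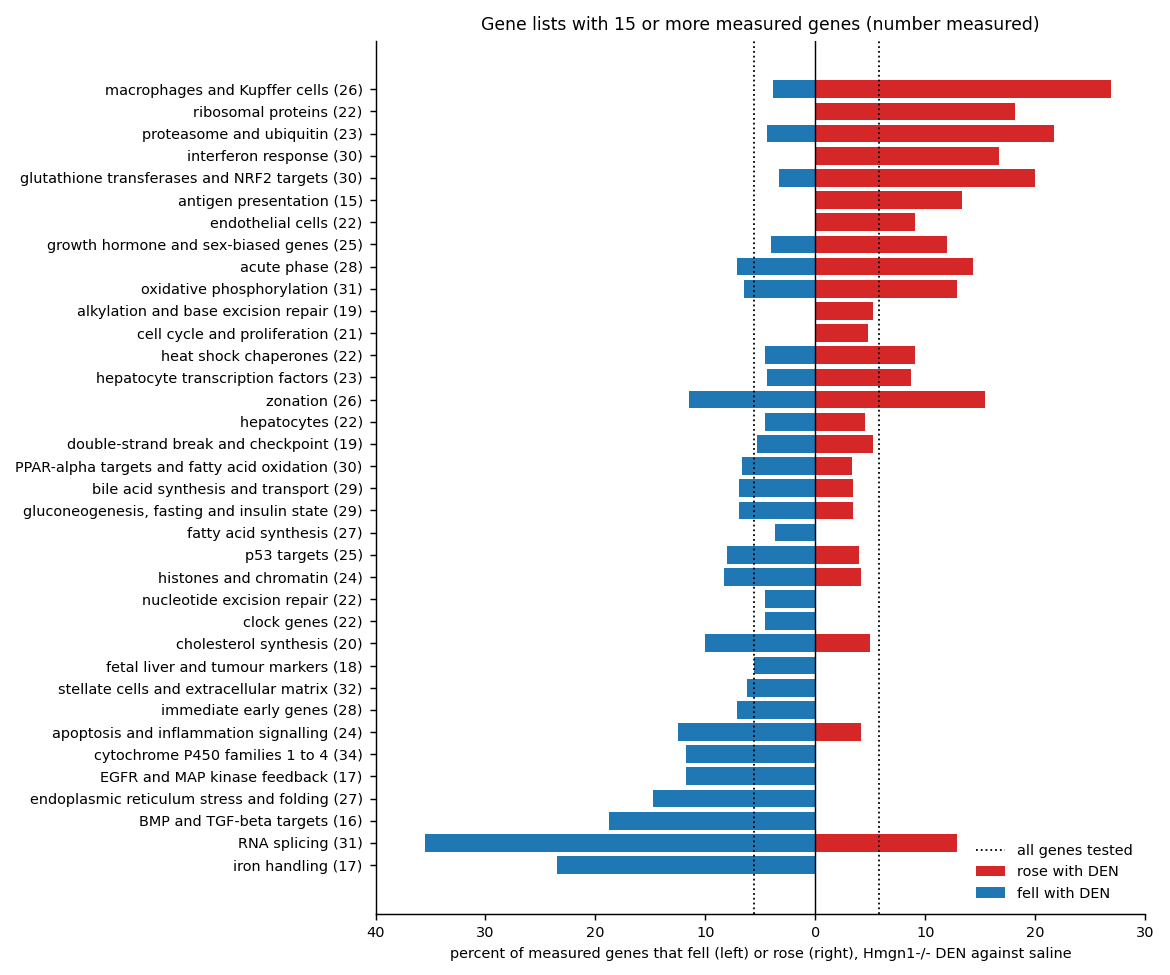
Percent of measured genes of each list that fell (blue, left) or rose (red, right) in DEN-exposed against saline knockout liver after quantile normalization, for lists with 15 or more measured genes, with the number measured in brackets; dotted lines mark all 12900 genes tested (5.61% fell, 5.78% rose). RNA splicing has the largest share of falls (35.5%) and macrophages the largest share of rises (26.9%); with the deposited signals P450 genes turn to 13 rises and 1 fall, and with centred array medians the iron and endoplasmic reticulum stress lists turn to more rises than falls.

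The response in wild type asks whether the changes depend on the missing HMGN1. Its saline and DEN arrays are separate from the knockout arrays, but its saline arrays share the low signal range. In wild type 983 of 27022 probe sets were called (3.64%), 488 genes in all (3.78%), 204 higher (1.58%) and 284 lower (2.2%); of the probe sets 1.48% were higher and 2.16% lower. Of the 1469 genes called in the knockout 315 (21.4%) were also called in wild type and in the same direction, and they made up 64.5% of the genes called in wild type. No gene was called in opposite directions. Of the knockout-called genes 1366 (93%) had the same sign in wild type, against 67% of all genes, and their wild-type difference was at the median 0.537 of the knockout difference, a ratio that starts from genes chosen for a large knockout difference.

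A direct test of the difference between the responses called 0 of 27022 probe sets with limma, while 1993 were under an unadjusted p of 0.05. The smallest adjusted p was 0.0637, at the weaker Syvn1 probe set, which differed by -0.92 in the knockout and by 0.25 in wild type. Falls seen in the knockout with the smallest p for the difference were those of Cmtm6, Id1 and Ngfr. Cmtm6, a membrane protein gene, was at 2613, 2752 and 2221 with saline and 1367, 1094 and 1151 with DEN in the knockout, and at 1901, 1842 and 1739 against 1567, 1590 and 1416 in wild type. The difference of its responses was -0.80 (95% interval -1.09 to -0.52, limma adjusted p = 0.0829), and its other probe set had the opposite sign. For Id1 the difference of responses was -1.34 (interval -1.93 to -0.76, adjusted p = 0.349).

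In the other direction the smallest p-values belonged to Acot13, Cyp7a1 and Morn1. Acot13, a thioesterase of fatty acyl-CoA, rose in the knockout from 690, 763 and 784 to 1173, 1215 and 1152 (0.65) and was at 853, 882 and 1061 against 1005, 1018 and 863 in wild type (0.05). Cyp7a1, which sets the pace of bile acid production from cholesterol, was at 505, 519 and 433 against 751, 1097 and 558 in the knockout (0.66, limma adjusted p = 0.0762) and at 824, 910 and 1085 against 732, 292 and 578 in wild type (-0.88, limma adjusted p = 0.0375). Its responses differed by 1.54 (interval 0.85 to 2.23, adjusted p = 0.349). Several large knockout changes were also called in wild type. Trpc4ap rose by 1.60 in the knockout and 1.58 in wild type, with a wide interval for the difference of responses (0.02, interval -0.98 to 1.01). Malat1 fell by 2.08 and 1.62 (difference -0.46, interval -1.30 to 0.38), and Ip6k2 fell by 1.53 and 1.67. The macrophage list had 7 rises in the knockout and 1 in wild type, C1qc (0.56), with medians of 0.35 and 0.09. Fcgr3, of that list, was at 98.4, 109 and 114 with saline and 104, 141 and 106 with DEN in wild type, and all 3 of its wild-type saline arrays were above its knockout saline arrays. The same was so for Psmb9, of the antigen presentation list, at 162, 188 and 165 against 184, 144 and 226 in wild type. The differences of the responses for Fcgr3 (0.63, adjusted p = 0.52), Lyz2 (0.50, adjusted p = 0.648) and Psmb9 (0.58, adjusted p = 0.515) did not pass, so a difference between the genotypes is not shown for them.

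**Figure D4:**
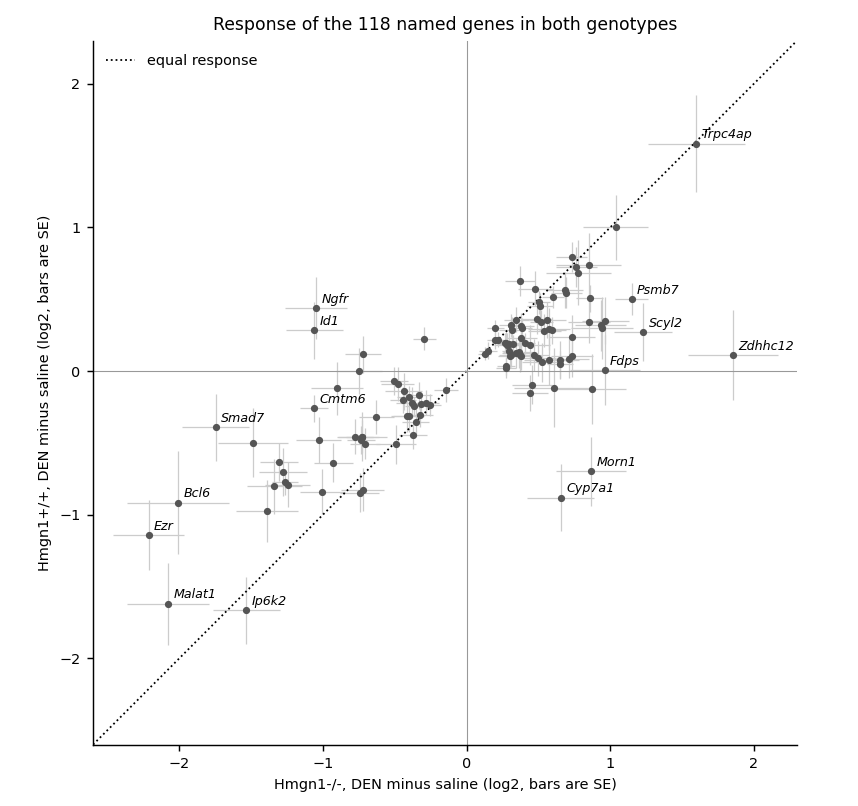
DEN minus saline difference in Hmgn1-/- liver (horizontal) against that in Hmgn1+/+ liver (vertical) in log2 for the 118 named genes, with bars of 1 SE (n = 3 arrays a group) and a dotted line of equal response. Most of the genes were named by rules that ask for a called knockout difference, and the part of this choice in the picture was not tested. Most points lie between the horizontal axis and the dotted line. Trpc4ap and Ip6k2 lie on that line, Zdhhc12 and Fdps near the axis, and 0 differences of response passed the test.

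The direction of change went with the length of the gene. Genes that rose had a median genomic span of 12049 bp and genes that fell one of 32698 bp, against 22560 bp over all genes. In the quartile of genes with the shortest span 9.97% rose and 3.7% fell, and in the quartile with the longest span 2.36% rose and 7.55% fell. The same order was seen in wild type, with 3.32% rising and 1.34% falling among the shortest genes and 0.435% and 3.2% among the longest. The ratio of the 3′ to the 5′ signal of Gapdh, a measure of how intact the labelled RNA was, separated the groups too. It was 1.41, 1.21 and 1.31 on the knockout saline arrays and 0.937, 0.907 and 0.926 on the knockout DEN arrays, while the same ratio for Actb overlapped (3.5, 2.99 and 2.72 against 2.82, 3.05 and 2.88). On the knockout 4-week arrays the Gapdh ratio was 1.7, 1.35 and 1.45 and the Actb ratio 5.05, 4 and 4.13. With the Gapdh ratio as a covariate 1358 probe sets were called in place of 2952. The part of the ratio in the changes of single genes was not tested beyond this.

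Probe sets of one gene often disagreed. A called probe set had the sign of another tested probe set of its gene in 2576 of 4350 comparisons (59.2%), and of 424 pairs in which both were called 123 went in opposite directions. For DEN against the 4-week knockout arrays the share was 74.5%, with 15 of 292 pairs opposite, and for knockout against wild type at 4 weeks, where no saline array enters, it was 82%, with 1 of 61 opposite. For saline against 4 weeks in the knockout it was 59.2%, with 68 of 230 opposite. For DEN against saline in wild type, which also uses saline arrays, it was 66.5%, with 6 of 74 opposite. By type, 18.5% of _x_at, 17.5% of _a_at, 15.4% of _s_at and 8.79% of _at probe sets were called, and 242 of the 329 called _x_at probe sets were lower with DEN.

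**Figure D5:**
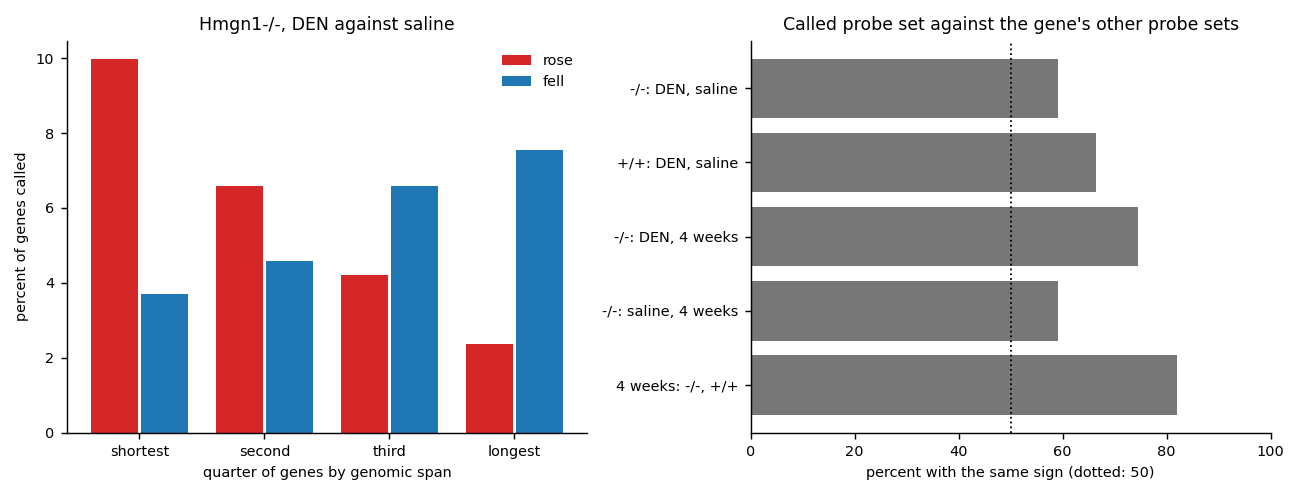
Left, percent of genes that rose or fell with DEN in knockout liver, by quartile of genes ordered by genomic span. Right, percent of comparisons in which a called probe set had the sign of another tested probe set of its gene, for 5 comparisons named by genotype and groups; it is 59.2% for knockout DEN against saline and 82% for the genotypes at 4 weeks.

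A stricter reading keeps the genes whose probe sets bear each other out. Of 5691 genes with 2 or more tested probe sets, 102 (1.79%) had at least 2 called in the same direction and all with the same sign, 52 higher and 50 lower with DEN. This selection was made after the values were seen. Among the falls were Smarca5 (-0.33) and Smarca2 (-0.39), motor subunits of chromatin remodelling complexes, Dot1l (-0.53), the methyltransferase of histone H3, Srrm2 (-0.52), a scaffold of nuclear speckles, Fubp1 (-0.79), Ddx5, Ddx17, Luc7l2 and Hnrnph1. Among the rises were Ctsz (0.77), a lysosomal protease, Cops9 (0.68), Snrpg (0.67), a core protein of the splicing particles, Ppib (0.64) and Spcs1 (0.64) of the secretory pathway, the mitochondrial ribosome genes Mrpl41 (0.60) and Mrpl49 (0.64), Ube2d3, Ifi27, and Slc10a1 (0.30), the bile acid importer of hepatocytes. Slc10a1 was at 6358, 6423 and 7018 with saline and 7439, 8581 and 8393 with DEN, and was not called without saline replicate 1 (adjusted p = 0.0933).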

How the data were processed

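Total RNA from frozen liver was hybridized to Affymetrix Mouse430_2 arrays. The deposited values are linear signal intensity values, 1 per probe set and array, made by the authors with MAS5 (version not given) per the submitters' processing notes; that they were scaled to a trimmed mean of 150 was read from the values (2% trimmed at each end). No counts or depth exist, and the number of arrays limits the precision. The image files were not used here.

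From 45101 probe sets 64 controls were set aside, 16 was added, log2 was taken and the 18 arrays were quantile normalized. The 27022 probe sets at or above the 40th percentile of the mean entered a linear model in R 4.3.3 (limma 3.58.1; the variance prior follows the mean signal) with a separate mean for each group, 12 residual and 8.71 prior degrees of freedom, two-sided, with Benjamini-Hochberg adjustment over all tested probe sets and a threshold of 0.05. Adjusted p-values are from this fit unless another setting is named. The fit was tested on simulated data. Platform annotation named 1 gene for 34945 probe sets, several for 932 and none for 9160, and a gene is represented by its single-gene probe set of highest mean (12900 genes). Gene names and spans are those of RefSeq for GRCm38.p6, with spans for 12877 genes.

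Named were the 12 largest rises and falls among called genes with a higher group mean of at least 7 in log2, the same sign under 3 other normalizations and no oppositely called probe set, up to 4 such members of each of 46 gene lists (900 genes measured), Hmgn1, Cyp2e1, Afp and Alb, and the 3 smallest p-values of the response difference in each direction; other list members are given from their lists. The members, lists and tests were chosen with earlier results of these data known. Alternatives were other normalizations, added constants, filters, variance models, array weights, a replicate block, the compared groups alone, leaving out probe set types or single arrays, and, added after seeing the data, the Gapdh ratio as a covariate and the mean over a gene's probe sets. The labels do not say whether the replicate numbers pair the samples. Deviations of same-numbered knockout DEN and saline arrays from their group means correlated at -0.0686, -0.0871 and 0.119 across probe sets. For differently numbered arrays the correlations ran from -0.154 to 0.212, so these values cannot settle the pairing.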

Additional observations from a re-analysis of the deposited data

Results flagged for a closer look

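Added transcripts that no comparison of genes uses differed between the groups. The bacterial and phage hybridization controls, which are mixed into every sample before it is put on the array, were higher on the knockout DEN arrays than on the knockout saline arrays by 2.55 (BioB), 2.71 (BioC), 2.52 (BioDn) and 2.40 (CreX) in log2 of the deposited signal plus 16. They were looked at because they lie outside the measured transcripts and stood above the level of the saline samples. None of the 4 overlapped between the groups, and the mean of BioB was 6.13 on the saline arrays and 8.68 on the DEN arrays.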

How the results depend on the processing

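The number of called knockout probe sets (2952) was 2135 to 4071 in the other planned settings that left out no array and fell to 1402 when probe sets above the 90th percentile of signal were also left out, where fewer were tested, and to 1358 with the Gapdh ratio as a covariate. Leaving out single arrays, where fewer samples enter, gave 1545 to 2397. The difference of responses (0 called) had 1 call without the high signals, 1 without _x_at and _s_at probe sets, and 0 to 2 without single arrays. With replicate numbers as a block 2821 and 0 probe sets were called, and whether samples of the same number pair is not known. The wild-type count (983) was 278 to 1766. Of 113 named called genes 35 kept direction and call in all settings run for them and 66 without any single array, while 7 changed direction in a setting; the cause was not tested. Without _x_at and _s_at probe sets, which puts another probe set in their place, the difference was 0.22 for Ezr, 0.18 for Gsto1, -0.042 for Hspe1, -0.66 for Lyz1 and 0.16 for Sesn1, and with the mean over probe sets it was -0.027 for Alas1 and -0.13 for Mgst3. Hmgn1, not called, turned from -0.14 to 0.29 (deposited signals), 0.40 (centred medians), 0.32 (without _x_at and _s_at), 0.047 (mean over probe sets) and 0.0010 (Gapdh covariate). Signal over background limits genes such as Ezr and Afp, whose lowest signals were near the added constant.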
